A study of Mus musculus with 16 samples.

Results

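The livers of 4 mice of the engineered line labelled Flox were compared with those of 4 wild-type (WT) mice, 8 of the 16 arrays of a study of CerS2, ceramide synthase 2. The 8 samples were taken by the condition in the labels, delneo for Flox and WT for wild type. All mice were 6-week-old males on a mixed background labelled 75% C57BL/6 and 25% SV129, and each array held liver RNA of 1 mouse. The labels call the Flox line CerS2 Flox and do not say what its allele contains, nor how many founders or litters the line comes from. The other 8 arrays held 4 mice of a line labelled H/A (CerS2 H/A) and 4 of a line labelled Del (CerS2 Del, condition delHox), and they enter below only where they show what a gene did elsewhere. Values are log2 signals on one scale for all arrays, so that a difference of 1 is a doubling of signal.

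CerS2 attaches fatty acids of very long chain length to a sphingoid base. The product, ceramide, is the core of sphingomyelin and glycosphingolipids, and CerS2 is the main ceramide synthase of liver. A floxed allele in general has recognition sites for the Cre recombinase set around part of a gene, and a line that carries one is commonly used as the control for the deletion made from it. The comparison of Flox with WT asks how far liver RNA of such a line differs from that of unmodified mice. The Cers2 gene itself is not analysed here, because no array probe could be paired with its name, so neither group's label was checked on the engineered gene.

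The value table holds 60037 probes, and 31511 genes were tested after dim probes were left out. The share of spots well above background was 59.2% ± 3.28 (SD, n = 4) in Flox and 57.6% ± 1.65 in WT (exact permutation test, two-sided p = 0.457, where 4 against 4 can reach 0.0286). The 8 arrays hold liver RNA: all 15 hepatocyte markers in the list used here were detected, and their median difference was -0.01. For 4 of the 8 samples (WT replicate 3 and Flox replicates 1, 2 and 4), the scanner file listed for the sample lay on another slide than the label says. The values used here follow the label, and for WT replicate 3 and Flox replicate 1 the group itself would change with the listed file. Along the first principal component of the 8 arrays (29.1% of the variance), WT replicate 2 lay farthest from the others, and along the second (19.6%) Flox replicate 1 did. Values without these arrays are given beside the results in which 1 of them lay apart.

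The 7 probes that separated the groups beyond the threshold used here (a Benjamini-Hochberg adjusted p under 0.05, limma) are shown by the first or last 30 bases of their sequence, 5′ to 3′, because these are the molecules that were measured. For the Hsd3b pair, capitals mark the 12 bases that the start of one probe and the end of the other share with 1 difference, A9G, counted from the first base of the Hsd3b3 probe.
Selenbp1, first bases: atggagggctgaagttgaaccccaactttc
Selenbp2, first bases: tcgttacccagggggtgactgcagttctga
Hsd3b3, first bases: CCCATTCAAAGCatgtatagccttccgaaa
Hsd3b6, last bases: tctccattattttctctcCCCATTCAGAGC
Asic5, first bases: tactagaatactacaactgtgtgtctccca
XM_006502259.1, first bases: tacaggtaggacctgatatttcggcgaggg
XM_006501095.1, first bases: ttggtgacagaggagccacatgtgactgtt
The Selenbp1 and Selenbp2 probes shared no run longer than 6 bases and the Hsd3b3 and Hsd3b6 probes none longer than 8. This sets probe against probe, not a probe against the other gene's transcript, so signal taken from that transcript was not tested. The 2 last names are transcript identifiers that could not be paired with a gene symbol. They fall outside the rule for named genes and are given because they are among the 7.

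Of the 31511 genes tested, 7 (0.0222%) were called between Flox and WT, 6 lower in Flox (0.019%) and 1 higher (0.00317%). All 5 that have a symbol lie on chromosome 3, the chromosome of Cers2. At an unadjusted p under 0.05 there were 1828 genes (5.8%), 784 higher (2.49%) and 1044 lower (3.31%). At an unadjusted p under 0.001 there were 39 (0.124%), 12 higher (0.0381%) and 27 lower (0.0857%). Groups that did not overlap were found for 1377 genes (4.37%), with Flox higher for 654 (2.08%) and lower for 723 (2.29%). The same model called 3165 genes (10%) between H/A and WT and 4166 (13.2%) between Del and WT, which share the WT arrays.

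**Figure D1:**
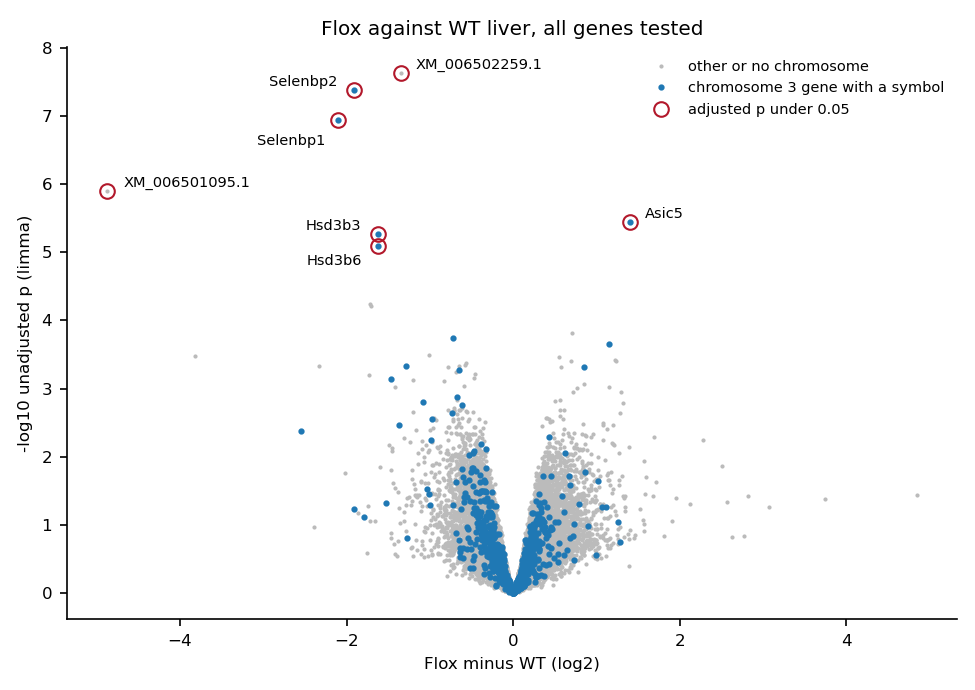
Difference between Flox and WT liver (log2, horizontal axis) against the −log10 of the unadjusted limma p (vertical axis) for the 31511 genes tested. Blue points are chromosome 3 genes with a symbol, and red rings mark the 7 genes with an adjusted p under 0.05, from -4.88 to 1.41.

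Selenbp1 and Selenbp2, which encode selenium-binding proteins made abundantly in liver, were both lower in Flox. Selenbp1 was at 12.19, 12.24, 11.09 and 12.18 in WT replicates 1 to 4, and at 9.88, 9.87, 9.56 and 9.96 in Flox replicates 1 to 4. Every Flox array lay below every WT array, also below WT replicate 3, which was the lowest of its group. The difference was -2.11 (95% interval -2.59 to -1.62), a 4.31-fold lower signal (limma adjusted p = 0.00119). Selenbp2 was at 13.38, 13.33, 12.45 and 13.33 in WT and at 11.30, 11.25, 10.97 and 11.31 in Flox. It differed by -1.91 (-2.32 to -1.51, limma adjusted p = 0.00066), and WT replicate 3 was again the lowest WT array. Across all 16 arrays the 2 genes ran together, with a correlation of 0.996 between their values that describes these arrays, which differ by genotype. Whether the probe of one also takes up transcript of the other was not tested.

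Hsd3b3 and Hsd3b6 belong to the 3-beta-hydroxysteroid dehydrogenases, enzymes that convert steroids by oxidation at carbon 3. Hsd3b3 was at 11.65, 11.89, 11.86 and 12.01 in WT and at 9.76, 10.59, 9.98 and 10.56 in Flox. The groups did not overlap, and the difference was -1.63 (-2.14 to -1.12, limma adjusted p = 0.0284). Hsd3b6 was at 11.75, 11.81, 11.73 and 11.98 in WT and at 9.69, 10.61, 9.98 and 10.52 in Flox, a difference of -1.62 (-2.14 to -1.09, limma adjusted p = 0.0367). Flox replicates 1 and 3 were the lower pair for both genes. Because the 2 genes are close copies of each other, signal shared between their transcripts cannot be told apart here (correlation over the 16 arrays 0.991).

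Asic5, which encodes a member of the acid-sensing ion channel family, was the 1 gene that rose. It was at 6.30, 7.24, 6.64 and 6.56 in WT and at 7.83, 8.13, 8.38 and 8.01 in Flox. The groups did not overlap, and the difference was 1.41 (0.98 to 1.83, limma adjusted p = 0.0227), a 2.65-fold higher signal.

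The unnamed transcript XM_006502259.1 had nearly the same value in all WT arrays (12.01, 12.03, 12.05 and 12.06) and was lower in Flox (10.30, 10.81, 10.93 and 10.73). It differed by -1.35 (-1.62 to -1.07, limma adjusted p = 0.00066). XM_006501095.1 was at 6.85, 7.11, 5.89 and 6.01 in WT, and in Flox at 1.49, 1.96, 1.38 and 1.54, where it was not well above background on any array. Its signal was at least 16.5-fold higher in WT, from a WT mean of 6.47 against the dimmest signal well above background on the Flox arrays, 2.42 on average, while the measured Flox mean was 1.59 (limma adjusted p = 0.00989). With normexp background correction, which adds an offset that compresses dim signals, the difference was -1.26 in place of -4.88.

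**Figure D2:**
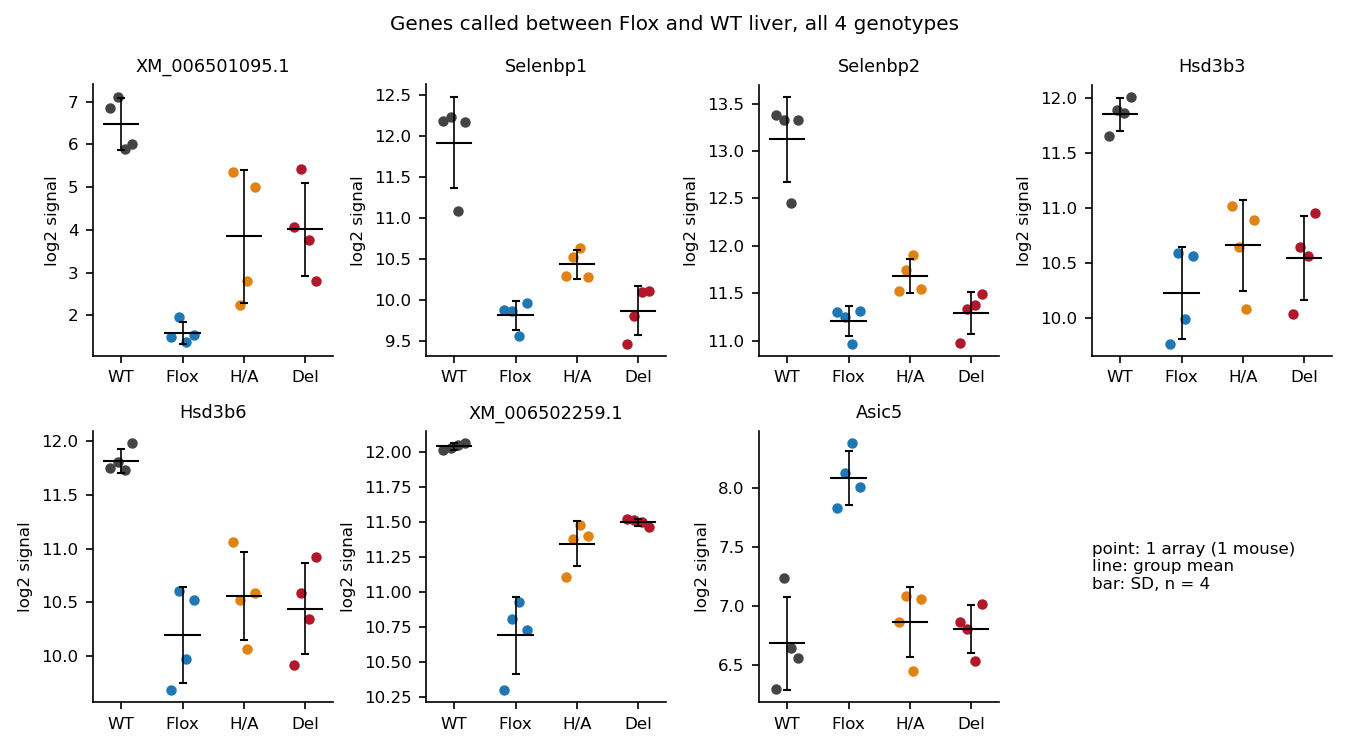
Log2 signal of the 7 genes called between Flox and WT, by genotype, 1 point per array, with the group mean and SD (n = 4). WT stands above the other 3 lines for 6 genes, and Flox stands above the other 3 for Asic5.

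The calls differed in how much they rested on single arrays. Selenbp1, Selenbp2 and XM_006502259.1 were still called when any 1 of the 16 arrays was left out. The other 4 were each lost without at least 1 Flox or WT array, and the total was 3 without WT replicate 1 or Flox replicate 3 and 4 without WT replicate 2 or WT replicate 4. The H/A and Del arrays enter through the shared spread. Hsd3b3 and Hsd3b6 were also lost without H/A replicate 2, Del replicate 2 or Del replicate 3, and Hsd3b6 without H/A replicate 4. Within the first slide, which by label held 2 mice of each group, the differences of Selenbp1, Selenbp2, Hsd3b3, Hsd3b6 and Asic5 were -2.34, -2.07, -1.59, -1.63 and 1.21. Within the second slide they were -1.87, -1.75, -1.66, -1.61 and 1.60. The direction was thus the same on both slides, although with 2 arrays a group 0 genes were called on either by limma, with 2559 and 826 genes at an unadjusted p under 0.05. With the Flox and WT arrays fitted alone, 2 genes were called, 1 of them among the 7. The adjusted p of Selenbp1 was then 0.0857, of Selenbp2 and XM_006502259.1 0.0608, of Hsd3b3 and Hsd3b6 0.0976 and of Asic5 0.219.

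The other 2 engineered lines were set beside these values. Their differences from WT use the same WT arrays, so they are no independent evidence of a low level in Flox. Selenbp1 was at 10.28 to 10.64 in H/A and 9.47 to 10.11 in Del, below all WT arrays, with differences from WT of -1.49 and -2.05 (limma adjusted p = 0.00115 and 6.76e-05). Selenbp2 differed from WT by -1.44 in H/A and -1.83 in Del. Hsd3b3 differed by -1.19 and -1.31, and Hsd3b6 by -1.26 and -1.37, all called. For these 4 genes every WT array lay above every array of the other 3 lines. Del differed from Flox by 0.05 for Selenbp1, 0.09 for Selenbp2, 0.32 for Hsd3b3 and 0.25 for Hsd3b6, none of them called, while 34.7% of all genes were called between Del and Flox. H/A lay 0.62 above Flox for Selenbp1 (limma adjusted p = 0.0481, where 33.2% of all genes were called). For the other 3 the differences of H/A from Flox were not called, at 0.47 for Selenbp2 (0.07 to 0.88), 0.43 for Hsd3b3 (-0.08 to 0.94) and 0.36 for Hsd3b6 (-0.17 to 0.88).

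Asic5 showed another order. It was at 6.45 to 7.09 in H/A and 6.53 to 7.02 in Del, within the WT range, and Flox was above every array of the other 3 groups. Its differences from WT were 0.18 in H/A and 0.12 in Del, neither called (limma adjusted p = 0.532 and 0.677). Del differed from Flox by -1.28 and H/A by -1.22 (limma adjusted p = 0.00061 and 0.00131). XM_006502259.1 showed a different order again, with Flox lowest (10.30 to 10.93), H/A between (11.11 to 11.48), Del above it at 11.46 to 11.52, where one H/A array reached into the Del range, and WT highest. XM_006501095.1 was well above background on 2 of 4 H/A and 2 of 4 Del arrays, at 2.23 to 5.36 in H/A and 2.79 to 5.43 in Del.

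Del against H/A shares no array with Flox against WT. Of the 7 genes, 0 were called in it by limma (background 0.0127%) and 1 had an interval that left out 0. The differences were -0.56 for Selenbp1, -0.39 for Selenbp2, -0.11 for Hsd3b3 and for Hsd3b6, -0.06 for Asic5, 0.15 for XM_006502259.1 and 0.17 for XM_006501095.1. The 1 interval was that of Selenbp1, -1.05 to -0.08 (limma adjusted p = 0.574). The intervals are not adjusted for the number of genes, and the share of all genes with such an interval is not given here.

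The genes of chromosome 3 were then ordered by their place from Cers2 in the reference gene order. Of the 845 chromosome 3 genes with a symbol that were tested, 11 (1.30%) had an unadjusted p under 0.001, 8 lower and 3 higher in Flox. Elsewhere in the genome 13 of 16844 did (0.0772%). At an unadjusted p under 0.05 the shares were 8.99% and 6.04%. Groups that did not overlap were found for 7.34% of chromosome 3 genes and for 4.65% of the others. No other chromosome held more than 3 genes with a p under 0.001. This comparison of chromosomes was chosen with the 5 calls known. Between 1 and 14 chromosome 3 genes passed 0.001 over all alternatives, the low value coming from the scanner files as listed.

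The 5 called genes with a symbol all lie within 500 places of Cers2. The measured genes of the chromosome run from place -1372 (before Cers2) to place 1069 (after it). Selenbp2 and Selenbp1 lie 40 and 30 places before Cers2, Hsd3b3 and Hsd3b6 lie 172 and 173 places after it, and Asic5 lies 460 places before it. Within 40 places of Cers2, 42 of 80 reference genes were measured. Of these, 2 were called, both lower, and 8 had a p under 0.05, 7 lower and 1 higher, where 5.8% of all genes did. From 41 to 200 places after Cers2 the share was 18.6% (11 of 59), and from 41 to 200 places before it 4.76% (3 of 63). Farther out, up to 500 places, it was 11.7% after and 10.1% before. Beyond 500 places it was 6.59% after and 5.36% before. The median difference of the 42 neighbours was -0.01, with a range from -2.11 to 0.85. Selenbp2 lies at the edge of the window of 40 places, so that a narrower window would leave it out. Earlier results of these data were known when the comparison was chosen.

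**Figure D3:**
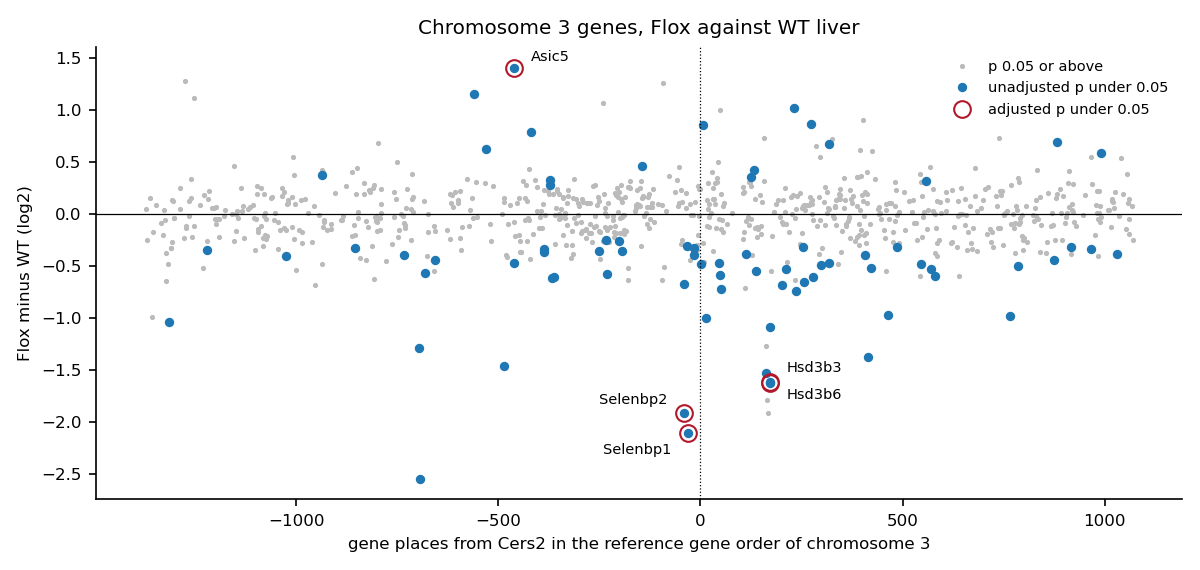
Difference between Flox and WT (log2, vertical axis) of the 845 chromosome 3 genes tested, by number of gene places from Cers2 (horizontal axis, dotted line at 0). Blue points have an unadjusted p under 0.05 and red rings an adjusted p under 0.05, with Selenbp1 and Selenbp2 just before Cers2, the Hsd3b pair after it and Asic5 far before it.

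Among the 5 measured genes nearest to Cers2 on each side, 0 were called by limma, 3 with an unadjusted p under 0.05. Setdb1, a histone methyltransferase and the first gene after Cers2, was at 6.87 to 7.01 in WT and 6.17 to 6.81 in Flox, with no overlap and a difference of -0.49 (-0.83 to -0.14). Its other tested probe gave -0.14. Ctsk, the protease cathepsin K, was at 4.40, 3.68, 3.94 and 4.22 in WT and at 4.80, 5.04, 4.96 and 4.84 in Flox, a difference of 0.85 (0.44 to 1.26). The groups did not overlap, but its adjusted p was 0.591, and 3 of the 4 WT arrays were well above background. H/A and Del lay 0.86 and 0.96 above the same WT arrays. Golph3l, a Golgi protein, differed by -1.01 (-1.93 to -0.08), with Flox replicate 1 at 2.86 and the other Flox arrays at 4.52 to 4.71, against 4.94 to 5.53 in WT. Without Flox replicate 1 the Golph3l difference was -0.57. The other 7 gave smaller differences. Anxa9 differed by 0.23, Mindy1 by -0.02, Prune1 by 0.24, Gm128 by 0.27 and Cdc42se1 by -0.21 on one side, and Arnt by -0.29 and the protease gene Ctss by -0.46 on the other. Other tested probes gave -0.06 for Ctss and 0.05 for Arnt, so that these genes have no settled difference.

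The other chromosome 3 genes with a p under 0.001 were not called and are given as values, with 1 neighbour above that p. Aadac, an arylacetamide deacetylase of liver, was at 12.04 to 12.79 in WT and 11.21 to 11.41 in Flox (-1.29, -1.91 to -0.67). Its neighbour Sucnr1, the succinate receptor, had a p of 0.00422 and was chosen after its values were seen. It was at 6.06 to 6.98 in WT, 2.53 in Flox replicate 1 and 4.40 to 4.51 in the other Flox arrays (-2.55, -4.16 to -0.93, limma adjusted p = 0.802). Without Flox replicate 1 the Sucnr1 difference was -2.07. Fnip2 differed by -1.47, the histone gene H2ac18 by -0.72 and the splicing factor gene Bcas2 by -0.65, with groups that did not overlap. Ppm1l, a protein phosphatase, was higher in Flox by 1.15 on its brighter probe (7.66 to 7.95 against 6.34 to 6.91), while its other tested probe gave 0.00. The 2 Ppm1l probes therefore disagree.

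The Hsd3b genes form a cluster, and 6 genes of that name were measured between 163 and 175 places after Cers2. The 2 predicted genes measured among and just before them, Gm10681 and Gm4450, differed by -1.79 (-3.80 to 0.22) and -1.53 (-3.04 to -0.02), were not called, and were picked after seeing their values. Besides Hsd3b3 and Hsd3b6, Hsd3b2 was lower in Flox with no overlap (6.68, 8.20, 7.87 and 7.74 against 8.45 to 9.04 in WT), at -1.09 and an adjusted p of 0.802. Hsd3b1 differed by -0.55 (-1.24 to 0.15), at 7.08 in Flox replicate 1, 8.05 to 8.93 in the other Flox arrays and 8.55 to 8.71 in WT. Without Flox replicate 1 the differences were -0.77 for Hsd3b2 and -0.21 for Hsd3b1. That array lay farther still from the other Flox arrays for Hsd3b5 and Hsd3b4. Hsd3b5 was at 6.09 in Flox replicate 1 and 11.76, 11.78 and 11.27 in the other Flox arrays, against 11.20 to 12.67 in WT. Hsd3b4 was at 1.54 in Flox replicate 1, 6.34 to 6.52 in the other Flox arrays and 5.50 to 7.80 in WT. In H/A and Del, Hsd3b5 was at 4.46 to 6.26 on all 8 arrays and Hsd3b4 at 1.45 to 2.27. Flox replicate 1 thus lay with H/A and Del for these 2 genes, where Hsd3b4 was not well above background, and the other 3 Flox arrays lay near WT. Without Flox replicate 1 the differences were -0.54 for Hsd3b5 and -0.05 for Hsd3b4. A second Hsd3b4 probe gave a smaller difference, -0.26 against -1.27.

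Hsd3b5 is one of the male-biased liver genes, which the pulsed growth hormone pattern of males keeps high, whereas the steadier pattern of females keeps the female-biased genes high. Of 23 male-biased genes tested, 1 was called lower (Selenbp2) and 0 higher, beside 0.019% and 0.00317% of all genes. Of these 23, 19 were lowest among the 8 arrays in Flox replicate 1. For this and the like counts below, the share of all genes with their extreme value in that array is not given. The median level of the list, centred on the mean of the 8 arrays, was -1.57 in Flox replicate 1 and 0.19 to 0.41 in the other Flox arrays, and -0.29 to 0.32 in WT. Elovl3, a fatty acid elongase, was at 5.98 in Flox replicate 1 against 10.62 to 12.25 in the other Flox arrays and 9.99 to 11.93 in WT. Serpina4-ps1 was at 6.71 there against 12.93 to 13.84 and 11.62 to 13.90. Both were picked after seeing their values. Besides Selenbp2, the 1 list member with an unadjusted p under 0.05 was Lifr, the leukaemia inhibitory factor receptor, at 7.58 in Flox replicate 1, 8.40 to 9.03 in the other Flox arrays and 8.91 to 10.18 in WT (-1.01, and -0.73 without Flox replicate 1).

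The female-biased genes were high in the same mouse, and 0 of them were called by limma or had an unadjusted p under 0.05. Of 19 tested, 13 were highest of the 8 arrays in Flox replicate 1, and the list level was 1.13 there against -0.31 to -0.05 in the other Flox arrays and -0.33 to 0.13 in WT. Cyp3a41a, a female-biased cytochrome P450, was at 11.38 in Flox replicate 1, 9.70 to 10.07 in the other Flox arrays and 9.37 to 10.09 in WT. Cyp2b13, also chosen after its values were seen, was at 8.33 in Flox replicate 1, at 1.24 to 1.29 in the other Flox arrays and at 1.23 to 4.40 in WT. It was well above background on 1 Flox and 1 WT array. The list medians between Flox and WT were -0.22 (male-biased) and 0.21 (female-biased), and without Flox replicate 1 they were 0.24 and -0.01. The 8 sex-linked genes tested differed by -0.28 to 0.11 between Flox and WT. Their list level was -0.05 in Flox replicate 1, -0.08 to 0.11 in the other Flox arrays and -0.02 to 0.10 in WT. Levels of mitosis genes did not set this mouse apart, at 0.44 against -0.19 to 0.57 in the other Flox arrays, while H/A and Del were at 1.56 to 2.88. Levels of NRF2 target genes did, at 0.45 against -0.12 to -0.04 in the other Flox arrays and -0.26 to 0.13 in WT. H/A and Del were at 0.69 to 1.64 for that list. Of its 20 genes, 11 were highest of the 8 arrays in Flox replicate 1. The NRF2 median was 0.12, and -0.03 without that array. Flox replicate 1 is one of the 2 arrays of this comparison whose group depends on the pairing of scanner file and sample. Its column matched the file at its labelled position with a correlation of 0.959 and the listed file with -0.17. The file at its labelled position is listed for H/A replicate 4. The file listed for Flox replicate 1 lay at the labelled position of H/A replicate 4. Whether the label of this array is right was not tested. The part of sample handling, of the mouse and of the line in these values was not tested.

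**Figure D4:**
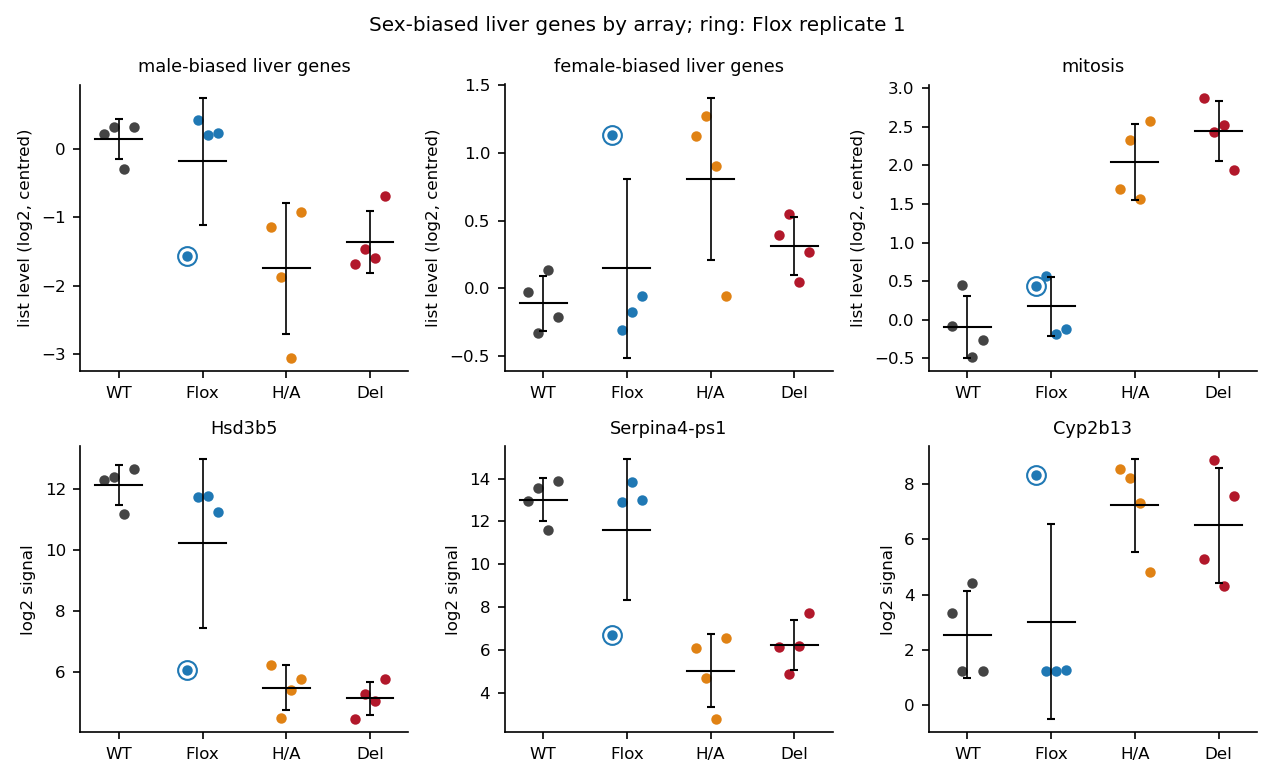
Centred median level of the male-biased, female-biased and mitosis lists (top, log2) and log2 signal of Hsd3b5, Serpina4-ps1 and Cyp2b13 (bottom) by genotype, 1 point per array with mean and SD (n = 4). Flox replicate 1, ringed, lies within the H/A and Del range for the male-biased list (-1.57), above every WT, other Flox and Del array for the female-biased list (1.13), and within the range of WT and the other Flox arrays for mitosis (0.44).

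Away from chromosome 3, 0 of 16844 genes with a symbol were called by limma, and 1018 had an unadjusted p under 0.05. Of the genes with the smallest p, Rgs3, a regulator of G-protein signalling, was at 7.50, 8.44, 6.47 and 6.88 in WT and 5.55, 5.35, 5.61 and 5.96 in Flox. It differed by -1.71 (-2.37 to -1.04, limma adjusted p = 0.213). H/A and Del were also low, at 4.96 to 5.68, and Rgs3 was called when WT replicate 3 was left out (limma adjusted p = 0.0393). Its 3 tested probes disagreed, from -1.71 for the brightest to 0.76. Enho, which encodes the secreted peptide adropin, was at 9.55 to 10.64 in WT and 8.98 to 9.24 in Flox (-1.01). H/A and Del were at 9.57 to 10.54 for Enho, so that Flox lay below all other arrays. Pxmp2, a peroxisomal membrane channel, differed by -0.79, the autophagy kinase Ulk2 by -0.65, Qdpr, which regenerates tetrahydrobiopterin, by -0.58 and Snrnp35 by -0.57. Flox lay below WT without overlap for each of these, and none was called.

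The genes higher in Flox with the smallest p had small differences or were dim, and none was called. Ccdc54 differed by 0.72, Myl3, a myosin light chain, by 0.56, Cyp2j11 by 0.56, Zfp385a by 0.44 and M1ap by 0.41, each without overlap. A second M1ap probe gave -0.65. Crygc, a lens crystallin, differed by 0.84 at signals of 3.16 to 4.88, and Elfn1 by 1.32 and Ccdc178 by 1.08 with overlapping groups. These 3 were each well above background on 1 of 4 WT arrays. Osbpl6, an oxysterol-binding protein relative, was not well above background on any WT array and was at least 2.29-fold higher in Flox (means 4.41 and 3.13, floor 3.21, limma adjusted p = 0.802).

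Genes of the pathway in which CerS2 works did not pass the threshold. All 4 other ceramide synthases measured were uncalled. Cers1 was at 8.21 to 8.36 in Flox and 7.84 to 8.16 in WT, without overlap, and differed by 0.23 (-0.04 to 0.50). Cers6, which uses shorter acyl chains, differed by -0.31 (-0.85 to 0.23). Cers4 (0.08, -0.28 to 0.45) and Cers5 (0.11, -0.39 to 0.60) had differences whose sign changed when single arrays were left out. All 4 intervals lie within 1 of 0, so that neither a doubling nor a halving of signal lies inside them.

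Of 10 genes of de novo ceramide synthesis, 0 were called by limma, and at an unadjusted p under 0.05 there were 1 higher and 1 lower. The median difference was -0.22, beside 0.02 over all genes, and 9 of 10 were below 0. List levels did not overlap, at -0.18 to -0.07 in Flox, 0.46 in WT replicate 2 and -0.05 to 0.07 in the other WT arrays. The nearest arrays were close, Flox replicate 4 at -0.065 and WT replicate 4 at -0.045. In all the other lists of the 32 the levels of the groups overlapped. How often chance would separate a list was not tested. Tlcd3b, a ceramide synthase relative, was higher by 0.38 (0.10 to 0.65), and Sptssa, a small subunit of serine palmitoyltransferase, the entry enzyme of the pathway, was lower by 0.34 (difference -0.34, -0.66 to -0.02). Ormdl2, a brake on that enzyme, differed by -0.23. WT replicate 2 held the highest value of the 8 arrays for 7 of the 10 genes, and without it the median was -0.19. Without both WT replicate 2 and Flox replicate 1 it was -0.10.

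Ceramide and sphingosine turnover (15 genes, median -0.07), sphingomyelin and glycosphingolipid enzymes (15, -0.05) and very long chain fatty acid elongation (14, -0.02) had 0 called genes by limma and 0, 1 and 0 with an unadjusted p under 0.05. The 1 was Galc, the lysosomal galactosylceramidase, at 4.13 to 4.55 in WT and 3.70 to 4.09 in Flox (-0.45, -0.83 to -0.06). The members with the next smallest p were S1pr1, a sphingosine 1-phosphate receptor (-0.24), the ceramide kinase gene Cerk (-0.27), the ceramidase gene Asah2 (-0.21), acid sphingomyelinase Smpd1 (-0.24) and Smpdl3a (-0.35). The elongases Elovl6, Elovl1 and Elovl2 differed by -0.35, -0.26 and -0.24, and another Elovl1 probe gave 1.06. The intervals of 13, 15 and 13 genes of these 3 lists lay within 1 of 0.

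The other gene lists described liver functions that respond to diet, stress, infection and growth. In all 32 lists the median difference lay between -0.30 and 0.31, and Selenbp2 was the 1 member called. Cholesterol synthesis had a median of -0.25 over 22 genes, with 19 below 0, where 14508 of all 31511 genes were, and 5 at an unadjusted p under 0.05, all lower, where 3.31% of all genes were. Cyp51, the sterol demethylase, was at 10.09 to 10.97 in WT and 9.45 to 10.09 in Flox (-0.65, -1.09 to -0.20). Idi1 and Tm7sf2, further enzymes of the pathway, differed by -0.59 and -0.47. WT replicate 2 was the highest of the 8 arrays for 12 of the 22, and the list level was -0.27 in WT replicate 1 and 0.17 to 0.36 in the other WT arrays, against -0.33 to 0.06 in Flox. The median was -0.20 without WT replicate 2 and -0.24 without both WT replicate 2 and Flox replicate 1. Within the first slide it was -0.01 and within the second -0.55.

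The unfolded protein and integrated stress response list had the lowest median, -0.30 over 22 genes, with 18 below 0 and 3 lower at an unadjusted p under 0.05 (3.31% of all genes). Canx, Edem1 and Xbp1, a chaperone, a factor of protein degradation and a transcription factor of the endoplasmic reticulum, differed by -0.56, -0.29 and -0.53. WT replicate 2 was highest of the 8 for 17 of the 22 genes and Flox replicate 1 lowest for 13. Without both arrays the median was -0.07. The acute phase list (23 genes, -0.23) likewise had 15 genes highest in WT replicate 2, and its median without that array was -0.02. Crp was at 12.64 there and 12.14 to 12.22 in the other WT arrays, and Fgb, a fibrinogen chain, at 15.03 against 13.86 to 14.04. Without WT replicate 2 their differences were -0.19 and -0.09.

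Interferon-induced genes had the highest median, 0.31 over 28 genes, with 24 above 0, where 17003 of all 31511 genes were, and 2 higher at an unadjusted p under 0.05 (2.49% of all genes). Usp18, an interferon-induced protease, was at 5.67, 7.28, 6.75 and 7.28 in WT and 7.96, 7.78, 7.40 and 7.56 in Flox (0.93, 0.32 to 1.54). Igtp, an immunity-related GTPase, differed by 1.18 (0.25 to 2.10). WT replicate 1 had the lowest list level, -0.73, with 0.06 to 0.34 in WT replicates 2 and 4 and -0.35 in WT replicate 3, and without WT replicate 1 the median was 0.11. Mitosis genes (34) had a median of 0.30 and overlapping levels, -0.49 to 0.45 in WT and -0.19 to 0.57 in Flox. Kif20a, a mitotic kinesin, differed by 0.59. The mitosis median was 0.03 with the scanner files as listed. Fatty acid oxidation and PPAR alpha targets (25) had a median of 0.18, with 17 genes highest in Flox replicate 1 and 12 lowest in WT replicate 2. The median was 0.11 without either of these arrays and 0.03 without both. Hadha, a subunit of the mitochondrial trifunctional protein, differed by 0.29.

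**Figure D5:**
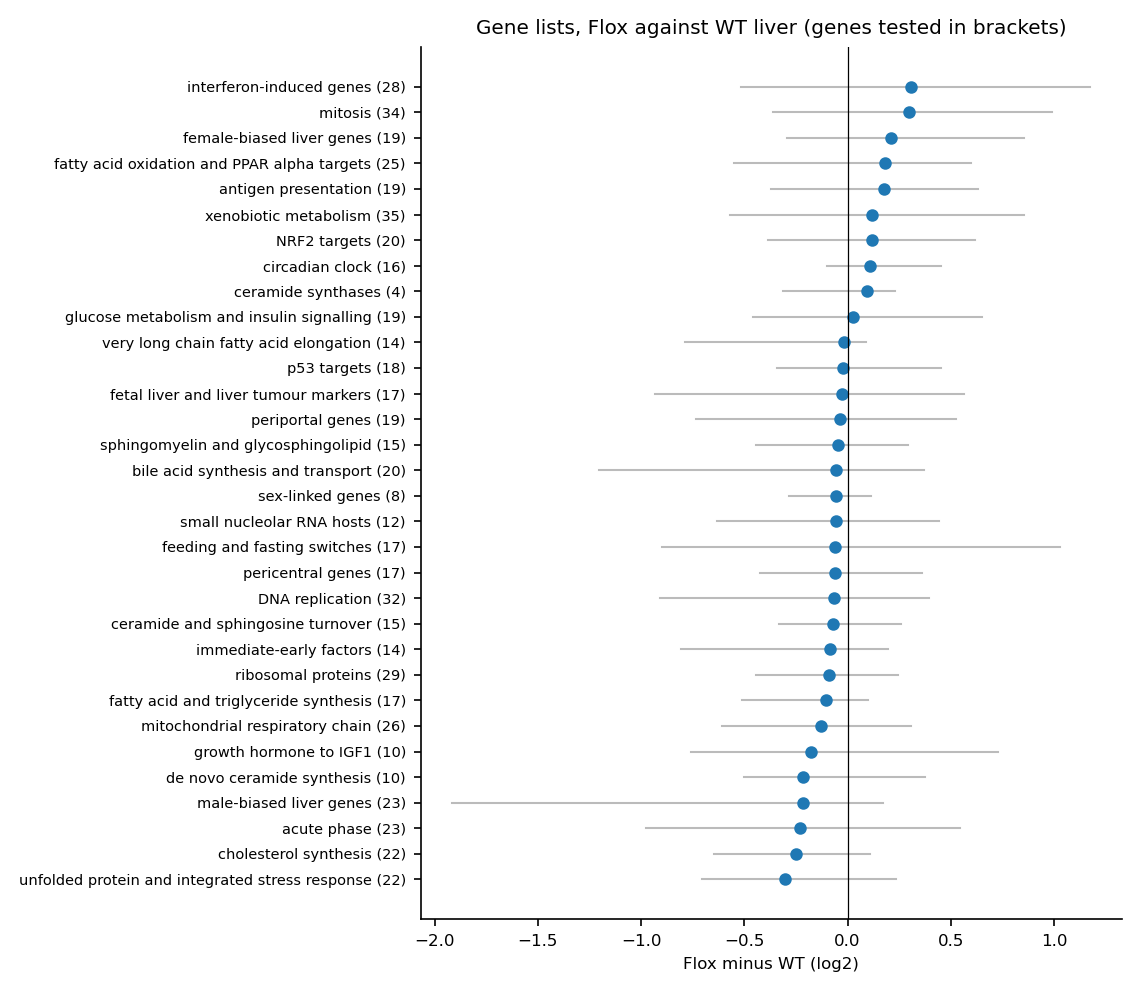
Median difference between Flox and WT (log2, dots) of the 32 gene lists, with the range from the lowest to the highest member (grey lines) and the number of genes tested in brackets. Medians lie between -0.30 and 0.31, and the male-biased list holds the 1 called member, Selenbp2 at -1.91.

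Marker lists of hepatocytes and of 9 other cell types that a liver sample can hold gave 0 called genes by limma. At an unadjusted p under 0.05, the cholangiocyte, Kupffer cell, stellate cell and pancreatic lists had 1 gene lower each and the pancreatic list 1 higher. In whole liver, a change in the number of cells of a type and in their RNA cannot be told apart. Kupffer cell and macrophage markers had a median of 0.15 (17 of 19 measured), with list levels of -0.37 to 0.41 in WT and -0.05 to 0.26 in Flox. Neutrophil markers had a median of 0.19 (11 of 13), at -0.11 to 0.05 in WT and -0.08 to 0.28 in Flox. Lymphocyte markers had 0.19 (12 of 19), at -0.12 to 0.10 and 0.06 to 0.16. Stellate cell and fibroblast markers had -0.17 (16 of 16), at -0.06 to 0.26 and -0.21 to 0.01. Sinusoidal endothelial markers had -0.10, cholangiocyte markers -0.08, erythroid markers -0.14, pancreatic markers 0.07 and adipocyte markers 0.01. The levels of WT and Flox overlapped for each of these lists. Their part in the list differences above was not tested.

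How large a difference the arrays could have missed is shown by the intervals. For 27211 of 31511 genes (86.4%) the 95% interval of the difference lay within 1 of 0, and for 98.7% within 2. The median half-width of the interval was 0.39, against a median size of the difference of 0.15. The observed difference exceeded 1 in size for 231 genes, 124 higher and 107 lower in Flox. The median SD between mice of a group was 0.25 in WT and 0.22 in Flox. The number of genes with a p under 0.05 fell from 1828 to 955 without WT replicate 2, to 1111 without Flox replicate 1 and to 702 without both.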

How the data were processed

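Liver RNA was labelled with Cy3 and hybridised to 1-colour Agilent arrays, per the labels. Scanner files hold spot intensity values with background subtracted, per the file headers, made with Agilent Feature Extraction 11 (Partek is the other tool in the submitters' processing notes). The deposited value table holds log2 values with the same median, 4.36, in all 16 columns. It was used through its columns by sample, because for 6 of 16 samples the listed scanner file was not at the labelled slide (correlation with the file at the labelled position 0.885 to 0.996). The marks for spots well above background came from the file at the labelled position.

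Probes were named through RefSeq transcript identifiers (GRCm38.p6 table, 36264 of 60037 probes). The files name no genome build, so no coordinates are given and the table was used for names and gene order. Probes were kept where 4 or more of the 16 arrays had them well above background (37851), and the brightest stood for each gene. The 4 groups were fitted together with limma 3.58.1 in R 4.3.3, without covariates, and p-values were adjusted by Benjamini-Hochberg over 31511 genes. The procedure was tested on simulated data, drawn independently for each gene with the same spread on all arrays. Genes that vary together and arrays that lie apart were not simulated, so that test does not cover them. Replicates are single mice, so p-values measure the spread between mice, and the number of arrays limits the precision. Alternatives covered the scanner files, scaling, background, filter, slide, model and each array left out in turn.

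The text names up to 12 genes with the largest calls or the smallest p in each direction, the ceramide synthases, for the lists described up to 3 members by smallest p, and the 5 measured neighbours of Cers2 on each side. Further genes are marked as chosen after their values were seen, or complete a family or a set of chromosome 3 genes. The members and lists were chosen with earlier results of these data known. One list member is not reported here.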

Additional observations from a re-analysis of the deposited data

Results flagged for a closer look

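For 150 groups of 4 arrays (the WT and the Flox group of each of 75 genes named above), the gap between the most extreme array and the nearest other was set against the whole range of the group. Dixon's 95% critical value was passed in 18 cases. Chance passes it in about 1 of 20 groups of genes chosen without regard to it, but 4 of the 18 cases (Sucnr1, Hsd3b4, Serpina4-ps1 and Cyp2b13) are in genes chosen after their values were seen, so the count cannot be set against that rate. The cause of these cases was not tested.

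Flox replicate 1 accounts for 7 of them. It was lowest of the Flox group for Hsd3b5 (6.09), Hsd3b4 (1.54), Serpina4-ps1 (6.71), Edem1 (9.24), Golph3l (2.86) and Sucnr1 (2.53), and highest for Cyp2b13 (8.33).

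WT replicate 3 was lowest of the WT group for Selenbp1 (11.09) and Selenbp2 (12.45). It still lay above every Flox array for both genes, and without it the differences were -2.38 and -2.14. WT replicate 2 was highest of WT for Crp (12.64) and Fgb (15.03) and lowest for Mindy1 (6.48).

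The remaining cases fell on other arrays. They were Flox replicate 3 for Selenbp2 (10.97, lowest), Flox replicate 4 for Ppm1l (7.95, highest) and M1ap (4.83, lowest), Flox replicate 2 for Aadac (11.41, highest) and Cers5 (5.07, highest), and WT replicate 4 for Aadac (12.04, lowest).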

How the results depend on the processing

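The 7 calls and the split of 6 lower and 1 higher were also obtained from the scanner files at the labelled positions, with normexp background correction, slide by label as a block, a filter of 8 arrays, every probe on its own, trend and robust moderation, and array weights. With the scanner files as listed there were 0 calls in either direction, 0 neighbours of Cers2 called, and 1 chromosome 3 gene and 1 other gene with p under 0.001 (11 and 13 in the values reported). Without scaling there were 4 calls, 0 higher and 2 genes off chromosome 3. The Flox and WT arrays alone gave 2 calls (2 lower, 0 higher), 0 neighbours and 5 genes off chromosome 3. Without the 4 arrays whose group depends on the pairing there were 3 calls (3 lower, 0 higher) and 7 off chromosome 3. With the slide of the listed file as a block there were 3 (3 lower, 0 higher), with 7 genes on chromosome 3 and 5 off it. Without moderation there were 3 (3 lower, 0 higher). Within slides 1 and 2 there were 0 calls (0 lower, 0 higher), 0 neighbours, 4 and 7 chromosome 3 genes, and within slide 1 there were 23 off it. Leaving out both WT replicate 2 and Flox replicate 1, chosen after seeing the data, gave 4 calls (3 lower), with 6 genes on chromosome 3 and 4 off it. With no filter there were 5 calls, 4 of them among the 7. Leaving out each of the 16 arrays in turn gave 3 to 7 calls, 3 to 6 lower, 0 to 1 higher, 2 neighbours, 7 to 12 chromosome 3 genes and 4 to 19 off it. The cause of these changes was not tested, beyond fewer arrays in the settings that drop some.

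None of the 7 called genes changed direction under any alternative run. Uncalled genes did. With the files as listed, Elovl3 was at 0.65, Cyp2b13 at -0.72 and Mindy1 at 0.16, and without the 4 pairing-dependent arrays at 0.28, -0.68 and 0.098. Mindy1 was at 0.012 with the listed file's slide as a block. Within slide 2, Xbp1 was at 0.0064, Hsd3b4 0.25, Elovl3 0.68, Serpina4-ps1 0.66, Cyp2b13 -1.56 and Mindy1 0.072. With array weights, Cers4 was at -0.011 and Cyp2b13 at -0.37. Leaving out both WT replicate 2 and Flox replicate 1, Cers4 was at -0.0083, Hsd3b4 0.39, Elovl3 0.93, Serpina4-ps1 0.43, Cyp2b13 -1.74 and Mindy1 0.0034. With each array left out in turn, values ran from -0.093 to 0.072 for Mindy1, -0.059 to 0.17 for Cers4, -0.095 to 0.21 for Cers5, -1.46 to 0.63 for Elovl3, -2.13 to 0.24 for Serpina4-ps1 and -1.30 to 1.09 for Cyp2b13. Hsd3b4 ran from -1.71 to -0.046.

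No paired analysis was possible because the labels give no shared replicate numbers, and the numbers used here follow accession order.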
